A study of Mus musculus with 16 samples.

Results

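The 10 genes described here are Chga, Chgb, Cck, Sct, Gip, Gcg, Tph1, Tac1, Neurod1 and Reg4, which encode hormones, granule proteins and other markers of enteroendocrine cells. They were chosen by name as enteroendocrine hormone and secretory granule genes, out of 49585 genes in the table of counts. All 10 passed the filter on low counts and were among the 12559 genes tested. Enteroendocrine cells are scattered secretory cells of the gut epithelium that arise from crypt stem cells. They store peptide hormones and serotonin in dense-core granules, in which granins help to pack the cargo, and release them on contact with nutrients and other luminal signals. Subtypes differ in their main product, and a single cell can make several.

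RNA was sequenced from 16 cultures of mouse small intestinal organoids in 4 groups of 4. The ΔIEC organoids (Atg16l1dIEC in the sample labels) carried villin-Cre with floxed Atg16l1, so that the gene was deleted in the intestinal epithelium, and the fl/fl organoids came from Cre-negative floxed animals. The mice were on a C57BL/6 background and aged 8 to 12 weeks, with littermates as controls. Organoids of each genotype were left untreated or received IL-22, a cytokine that acts on epithelial cells, at 10 ng/ml for 24 h. Each genotype came from 2 organoid lines, and each line gave 2 cultures to each treatment. In a group, replicates 1 and 2 belong to the first line of the genotype, and replicates 3 and 4 to the second line. Each line has only 1 genotype, so a difference between genotypes rests on 2 lines against 2.

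Counts on genes ranged from 2135000 to 5574860 per culture. Levels are given as CPM, counts relative to the library size, which was scaled by TMM, a factor that corrects for differences in composition between libraries. The order of the 10 genes is given as CPM per kb of exon length. Sums over genes, shares of a sum and the gene with the largest part of a sum (by group means) are in CPM, in which longer genes weigh more. Differences are given on the log2 scale, as log2 fold changes with their standard error (SE). Each adjusted p is from edgeR's quasi-likelihood test with Benjamini-Hochberg adjustment over all 12559 genes, and passed the threshold when under 0.01.

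The genotype labels were checked first against Atg16l1, the autophagy gene that was deleted (chromosome 1, 87755870 to 87792428). The untreated fl/fl cultures had 38.9, 31.6, 41.2 and 49.2 CPM of Atg16l1, and those with IL-22 had 39.2, 40.0, 51.8 and 48.8. Untreated ΔIEC cultures had 2.59, 2.71, 1.21 and 4.15 CPM, and those with IL-22 had 0.81, 5.96, 0.302 and 0.289. No ΔIEC culture thus reached the level of any fl/fl culture, at a log2 difference of -3.90 (SE 0.37, adjusted p = 1.27e-06) untreated and -4.51 (SE 0.38, adjusted p = 2.25e-07) with IL-22. The value with IL-22 depended on IL-22-treated ΔIEC replicate 2, the one with 5.96 CPM, without which it was -6.59 (adjusted p = 2.32e-09). It was -7.09 without the first ΔIEC line and -3.59 without the second, the lowest and highest values over the left-out cultures and lines, and it passed in each. Over all genes compared, IL-22-treated ΔIEC replicate 2 was also nearer to replicate 4, of the second line, than to replicate 1 of its own.

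The tissue label was checked against marker lists. All 6 epithelial markers were measured, with a summed level of 5193 to 9296 CPM per culture and Krt8 the largest part. All 7 enteroendocrine markers (Chga, Chgb, Neurod1, Neurog3, Pcsk1, Scgn and Fev) had counts, and 5 of them were tested. Chgb was the largest part of their sum, which was 190.5 to 602 CPM per culture. Tac1 and the granins are also made by enteric neurons, so neuronal markers were looked at as well. Elavl4 and Hand2 had 0 counts in all 16 cultures, and the 7 neuronal markers summed to between 2.41 and 10.5 CPM, with Ret the largest part. The mean of the neuronal sum was 4.48 CPM untreated and 8.19 CPM with IL-22 in fl/fl, and 4.00 and 4.42 CPM in ΔIEC. Immune markers summed to at most 4.92 CPM, with Lyz2 the largest part and Cd3e and Itgax at 0. Stromal markers summed to at most 3.69 CPM, with Pecam1 the largest part and Dcn at 0.

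Of 6 genes that differ along the small intestine, all chosen after their values were seen, Pdx1 set the second fl/fl line apart from every other line in each treatment. Pdx1, a transcription factor of the proximal small intestine, was at 1.36 and 2.14 CPM in the untreated cultures of that line and at 3.94 and 6.29 CPM with IL-22. In the first fl/fl line it was at 31.9 and 34.5 CPM untreated and at 31.7 and 41.4 CPM with IL-22. In ΔIEC cultures Pdx1 was at 19.8, 21.2, 42.2 and 44.0 CPM untreated and at 13.4, 31.8, 39.0 and 33.6 CPM with IL-22. Cybrd1, a ferric reductase of the duodenal brush border, also differed between the fl/fl lines, with 867 and 731 CPM in the untreated first line and 224 and 230.3 CPM in the second, and 454 and 581 CPM against 184 and 148 CPM with IL-22. It did not set that line apart from all others, since with IL-22 the first ΔIEC line had less Cybrd1 (124 and 121 CPM). Onecut2 was lowest in the second fl/fl line when untreated (91.1 and 82.4 CPM) and overlapped ΔIEC with IL-22. Gata4 overlapped between the fl/fl lines with IL-22 and Slc10a2 when untreated, and Fabp6 had at most 7 counts. For the 10 genes, results between genotypes are also given without the second fl/fl line.

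Per kb of exon, the levels of the 10 genes in untreated fl/fl organoids spanned a wide range. Reg4 was highest with 248 ± 51.8 CPM per kb (mean ± SD, n = 4), followed by Chgb with 124 ± 35.99. Cck had 39.5 ± 19.3 and Sct 31.4 ± 6.78 CPM per kb, and these overlapped. Chga, the other granin, was at 19.7 ± 3.02 and Gip at 14.9 ± 1.60 CPM per kb. Chga overlapped Cck, and its lowest culture (16.78) lay just above the highest of Gip (16.72). Gcg followed with 4.00 ± 0.808, Neurod1 with 3.13 ± 0.269, Tph1 with 2.74 ± 0.259 and Tac1 with 1.45 ± 0.307 CPM per kb. In that lower set Gcg overlapped Neurod1, Neurod1 overlapped Tph1, and Tac1 lay below the others in every culture.

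With IL-22 the order in fl/fl organoids was led by Chgb with 150.2 ± 25.3 CPM per kb, then Cck with 50.2 ± 9.49, Reg4 with 37.4 ± 1.97 and Sct with 33.8 ± 6.62. Reg4 overlapped Sct in that order and lay below every value of Cck. Then came Chga with 20.4 ± 1.38, Gip with 15.9 ± 1.93, Gcg with 8.98 ± 2.92, Tac1 with 5.26 ± 0.663, Neurod1 with 4.45 ± 0.275 and Tph1 with 4.43 ± 1.91 CPM per kb, of which Tac1, Neurod1 and Tph1 each overlapped the gene before it. Untreated ΔIEC organoids had Reg4 at 136 ± 8.76, Chgb at 76.8 ± 16.8, Sct at 34.8 ± 7.35, Cck at 21.5 ± 6.40 and Chga at 11.7 ± 3.90 CPM per kb, with Sct and Cck no longer overlapping. Below them were Gip at 7.17 ± 3.79, Tph1 at 3.04 ± 1.60, Tac1 at 2.09 ± 0.680, Neurod1 at 1.78 ± 0.107 and Gcg at 1.41 ± 0.844 CPM per kb, neighbours that all overlapped. With IL-22 the ΔIEC order was Chgb at 85.9 ± 29.9, Sct at 37.0 ± 13.1, Cck at 26.8 ± 15.3, Reg4 at 18.1 ± 2.60 and Chga at 10.2 ± 3.17 CPM per kb. There Reg4 overlapped Cck but not Sct. Below them were Gip at 7.05 ± 2.25, Tac1 at 5.50 ± 1.15, Gcg at 3.86 ± 1.55, Tph1 at 3.68 ± 1.80 and Neurod1 at 2.86 ± 1.76 CPM per kb, and these again overlapped.

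Summed over the 10 genes, the CPM of untreated fl/fl cultures was 766 ± 189, and with IL-22 it was 675 ± 95.0. The ΔIEC cultures summed to 470.1 ± 86.1 CPM untreated and 401 ± 131 with IL-22. Chgb and Reg4 together made up most of the sum. The share of Reg4 was 33.1% in untreated fl/fl and 5.7% with IL-22, and in ΔIEC it was 29.6% and 4.6%. The share of Chgb was 44.4% and 61% in fl/fl, and 44.7% and 58.7% in ΔIEC.

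**Figure D1:**
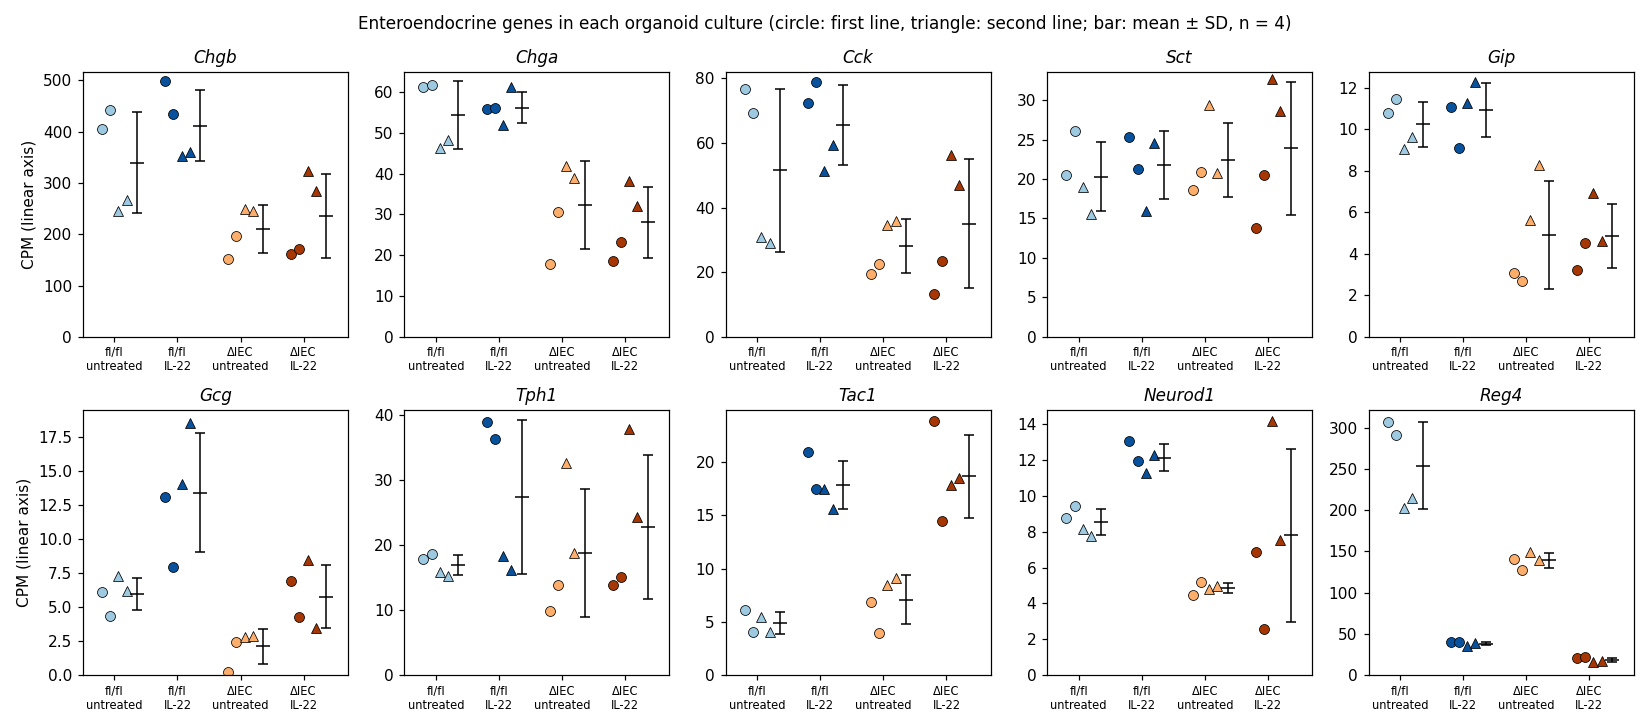
Level of each of the 10 genes (CPM, linear axis from 0) in the 16 cultures by group, with circles for the first and triangles for the second line of a genotype and bars for mean ± SD (n = 4). All 8 cultures with IL-22 had less Reg4 (16.02 to 39.6 CPM) than all 8 untreated cultures (127.5 to 307 CPM).

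The first pair of comparisons asked how the genes responded to IL-22 with and without epithelial Atg16l1. In fl/fl organoids Reg4, a secreted lectin of the Reg family found in enteroendocrine and other secretory cells, fell 6.68-fold. Tac1, which encodes substance P, rose 3.65-fold and Gcg, the precursor of GLP-1 and GLP-2, rose 2.27-fold, while the other 7 genes did not pass the threshold. In ΔIEC organoids Reg4 fell 7.52-fold and Tac1 rose 2.71-fold, and 8 genes did not pass. In bulk RNA, fewer cells of a type and less RNA per cell cannot be told apart.

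Counted against all genes, 2 of the 10 were higher and 1 lower with IL-22 in fl/fl organoids, where 10.6% of tested genes were higher and 10.2% lower. For ΔIEC, 1 of the 10 was higher and 1 lower, where 9.83% of tested genes were higher and 7.65% lower. The median log2 fold change of the 10 genes was 0.29 in fl/fl, beside -0.05 over all tested genes, and 0.27 in ΔIEC, beside -0.01. Log2 fold changes were positive for 9 of 10 genes in fl/fl and 8 of 10 in ΔIEC, most of them small.

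The granins Chga and Chgb (chromosome 12, 102554969 to 102565028, and chromosome 2, 132781278 to 132795079) are structural proteins of the dense-core granule. Chga was at 61.4, 61.8, 46.2 and 48.2 CPM in untreated fl/fl cultures and at 55.8, 56.1, 51.8 and 61.1 CPM with IL-22. In ΔIEC cultures Chga was at 17.9, 30.5, 41.8 and 39.0 CPM untreated and at 18.6, 23.3, 38.1 and 32.1 CPM with IL-22. Treated and untreated cultures overlapped within each genotype. The log2 fold change of Chga with IL-22 was 0.04 (SE 0.19, adjusted p = 0.913) in fl/fl and -0.14 (SE 0.22, adjusted p = 0.684) in ΔIEC.

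For Chgb, untreated fl/fl cultures had 404, 443, 245 and 267 CPM and those with IL-22 had 499, 435, 352 and 359.9 CPM. In ΔIEC, Chgb was at 151, 197, 249 and 245 CPM untreated and at 161, 171, 324 and 285 CPM with IL-22. The lines of a genotype differed more than the treatments did, with high values in the first fl/fl line and in the second ΔIEC line. For the effect of IL-22, Chgb was at 0.27 (SE 0.22, adjusted p = 0.376) in fl/fl and 0.17 (SE 0.22, adjusted p = 0.618) in ΔIEC. With line as a replicate block the fl/fl value was 0.30 and passed the threshold (adjusted p = 0.00464), and in ΔIEC it was 0.13 (adjusted p = 0.286). The fl/fl value did not pass in any of the other alternatives run, in which adjusted p reached 0.765.

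Among the hormones, Cck (cholecystokinin, which acts on gallbladder and pancreas), Sct (secretin, which stimulates bicarbonate release) and Gip (an incretin that potentiates insulin release) did not pass the threshold with IL-22. Cck (chromosome 9, 121489824 to 121495694) ranged from 28.9 to 76.8 CPM in untreated fl/fl cultures and from 51.4 to 78.8 CPM with IL-22, with a log2 difference of 0.32 (SE 0.32, adjusted p = 0.489). The low untreated values were those of the second fl/fl line, at 30.8 and 28.9 CPM, which had 51.4 and 59.3 CPM with IL-22. In ΔIEC, Cck ranged from 19.3 to 35.7 CPM untreated and from 13.4 to 56.2 CPM with IL-22, a log2 difference of 0.40 (SE 0.37, adjusted p = 0.465). Within lines the IL-22 change of Cck on the log2 scale was 0.05 and 0.88 in fl/fl and -0.22 and 0.54 in ΔIEC, so the lines of 1 genotype did not move alike.

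Sct (chromosome 7, 141278330 to 141279133) ranged from 13.8 to 32.6 CPM over all 16 cultures, and all 4 groups overlapped. Its log2 fold change with IL-22 was 0.07 (SE 0.23, adjusted p = 0.852) in fl/fl and 0.13 (SE 0.22, adjusted p = 0.713) in ΔIEC. Gip (chromosome 11, 96024545 to 96030831) was at 10.8, 11.5, 9.07 and 9.63 CPM in untreated fl/fl cultures and at 11.1, 9.12, 11.3 and 12.3 CPM with IL-22. In ΔIEC cultures Gip was at 3.06, 2.71, 5.63 and 8.31 CPM untreated and at 3.24, 4.54, 6.95 and 4.63 CPM with IL-22. Treated and untreated values of Gip overlapped in each genotype, with log2 fold changes of 0.08 (SE 0.24, adjusted p = 0.842) in fl/fl and 0.11 (SE 0.31, adjusted p = 0.834) in ΔIEC.

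Gcg (chromosome 2, 62474530 to 62483650) encodes proglucagon, which intestinal L cells cleave to GLP-1 and GLP-2. The gene was thinly covered, with 1 to 75 counts per culture. Gcg was at 6.14, 4.34, 7.25 and 6.15 CPM in untreated fl/fl cultures and at 13.1, 7.95, 14.1 and 18.6 CPM with IL-22. In ΔIEC cultures Gcg was at 0.236, 2.46, 2.82 and 2.91 CPM untreated and at 6.88, 4.26, 8.46 and 3.47 CPM with IL-22. In each genotype every culture with IL-22 was above every untreated one, and this held in each of the 4 lines. On the log2 scale Gcg was at 1.18 (SE 0.33, adjusted p = 0.00956) in fl/fl, which passed, and 1.54 (SE 0.46, adjusted p = 0.0164) in ΔIEC, which did not.

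The calls on Gcg lay close to the threshold. The fl/fl call was lost without either fl/fl line, with the cultures of a line summed, and without any 1 of 12 of the 16 cultures. Those were all untreated fl/fl cultures, IL-22-treated fl/fl replicates 1, 3 and 4, untreated ΔIEC replicates 2, 3 and 4, and IL-22-treated ΔIEC replicates 1 and 2. Over the left-out cultures and lines the log2 fold change of Gcg stayed between 0.96 and 1.38, and adjusted p where the call was lost was 0.0106 to 0.186. With line as a replicate block Gcg passed in both genotypes, at 1.13 (adjusted p = 8.76e-04) in fl/fl and 1.50 (adjusted p = 0.00403) in ΔIEC, but with the cultures of a line summed the ΔIEC value of 1.53 did not pass either (adjusted p = 0.0481). The ΔIEC value also passed with DESeq2 (adjusted p = 0.00525) and with no filter on low counts (adjusted p = 2.16e-04), and its adjusted p over all alternatives reached 0.238.

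Tph1 (chromosome 7, 46644641 to 46672537) encodes the rate-limiting enzyme of serotonin synthesis in enterochromaffin cells. Tph1 ranged from 15.3 to 18.6 CPM in untreated fl/fl cultures and from 16.2 to 38.8 CPM with IL-22. The high values, 38.8 and 36.2 CPM, were the first fl/fl line with IL-22, and the second had 18.2 and 16.2 CPM. In ΔIEC, Tph1 ranged from 9.90 to 32.6 CPM untreated and from 13.8 to 37.8 CPM with IL-22. Its log2 fold change was 0.66 (SE 0.35, adjusted p = 0.155) in fl/fl and 0.37 (SE 0.36, adjusted p = 0.487) in ΔIEC. The fl/fl value passed with line as a replicate block (0.67, adjusted p = 0.0023) and with no filter on low counts (0.67, adjusted p = 5.27e-04), in a range of adjusted p over the alternatives that reached 0.818. It did not pass with the cultures of a line summed (0.68, adjusted p = 0.378). Within lines the change of Tph1 was 1.02 and 0.14 in fl/fl and 0.29 in each ΔIEC line.

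Tac1 (chromosome 6, 7554879 to 7565834) encodes the tachykinins substance P and neurokinin A, which enterochromaffin cells store beside serotonin. Tac1 was at 6.14, 4.08, 5.44 and 4.01 CPM in untreated fl/fl cultures and at 20.98, 17.5, 17.5 and 15.6 CPM with IL-22. In ΔIEC cultures Tac1 was at 6.84, 3.94, 8.44 and 9.14 CPM untreated and at 23.9, 14.5, 17.8 and 18.5 CPM with IL-22. All 8 cultures with IL-22 were above all 8 untreated cultures, in counts of 51 to 93 against 12 to 29. In the fit Tac1 was at a log2 difference of 1.87 (SE 0.23, adjusted p = 4.83e-06) in fl/fl and 1.44 (SE 0.22, adjusted p = 5.40e-05) in ΔIEC. Within lines, as differences of mean log2 CPM and not from the fit, Tac1 rose by 1.82 and 1.70 in fl/fl and by 1.73 and 1.00 in ΔIEC. The calls held in every alternative run.

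Neurod1 (chromosome 2, 79452521 to 79456751) is a transcription factor of enteroendocrine differentiation. Its exons share 201 bases with Cerkl on the same strand and 154 bases with Gm26755 on the other, genes that had at most 6 and 13 counts per culture, and how many reads of Neurod1 were lost in these bases was not measured. Neurod1 ranged from 7.76 to 9.44 CPM in untreated fl/fl cultures and from 11.3 to 13.1 CPM with IL-22, without overlap. The log2 fold change of 0.49 (SE 0.28, adjusted p = 0.187) did not pass. A two-sided exact permutation test of 4 cultures against 4 gave p = 0.0286, the smallest it can give and the one it gives whenever the groups do not overlap, but it takes the cultures as independent, and they came from 2 lines. In ΔIEC, Neurod1 ranged from 4.48 to 5.17 CPM untreated and from 2.56 to 14.2 CPM with IL-22, a log2 difference of 0.68 (SE 0.33, adjusted p = 0.134). The lowest treated value, 2.56 CPM, was that of IL-22-treated ΔIEC replicate 2, without which the ΔIEC value was 1.00 and passed the threshold (adjusted p = 0.00464). Without the second ΔIEC line the ΔIEC value was -0.15.

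Reg4 (chromosome 3, 98222156 to 98236748) encodes a secreted C-type lectin and marks enterochromaffin cells, and it has also been found in other secretory cells of the gut. Reg4 was at 307, 291, 202 and 215 CPM in untreated fl/fl cultures and at 39.6, 39.5, 35.3 and 38.4 CPM with IL-22. In ΔIEC cultures Reg4 was at 140.5, 127.5, 149 and 140 CPM untreated and at 20.2, 21.3, 16.02 and 16.5 CPM with IL-22. No treated culture came near an untreated one, and the treated cultures of a group lay close together. The log2 fold change of Reg4 was -2.74 (SE 0.13, adjusted p = 3.71e-12) in fl/fl and -2.91 (SE 0.14, adjusted p = 7.86e-12) in ΔIEC. Within lines Reg4 fell by 2.90 and 2.48 in fl/fl and by 2.65 and 3.11 in ΔIEC on the log2 scale. The calls held in every alternative run, with log2 fold changes of -2.92 to -2.48 in fl/fl and -3.15 to -2.72 in ΔIEC.

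**Figure D2:**
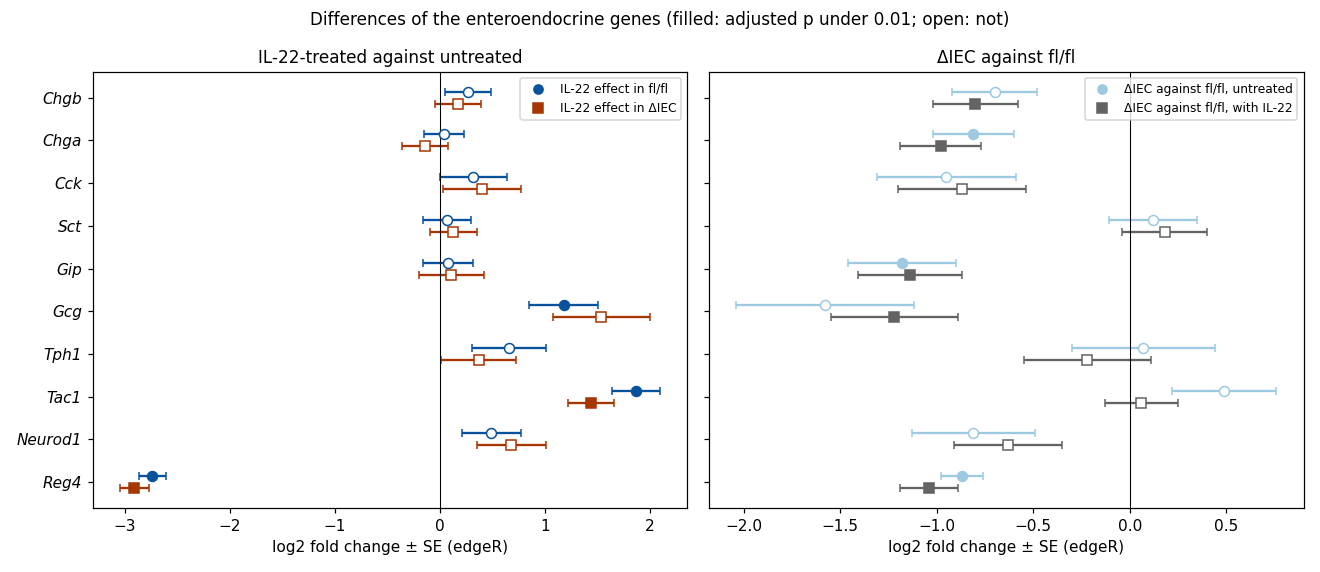
Log2 fold change of each of the 10 genes with its SE, for IL-22 against untreated in each genotype (left) and for ΔIEC against fl/fl without and with IL-22 (right), with filled symbols for an adjusted p under 0.01. With IL-22, Reg4 lay at -2.74 and -2.91 and Tac1 at 1.87 and 1.44, and between genotypes Chga, Gip and Reg4 were filled both without and with IL-22.

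Whether the response to IL-22 differed between the genotypes was tested by the interaction, the log2 fold change in ΔIEC minus that in fl/fl. None of the 10 genes passed, 0 of 10 in edgeR, where 2 of the 12559 tested genes did (0.0159%). At an unadjusted p under 0.05 the count was also 0 of 10 in edgeR, in DESeq2, in limma-voom and with line as a replicate block. Over all genes 912, 779, 1379 and 1661 had an unadjusted p that low in these fits. The interaction was -0.43 (SE 0.33, adjusted p = 0.835) for Tac1, -0.17 (SE 0.19, adjusted p = 0.913) for Reg4 and 0.36 (SE 0.57, adjusted p = 0.954) for Gcg. For the other 7 genes it lay between -0.29 for Tph1 and 0.19 for Neurod1. The median over the 10 genes was -0.03, beside 0.03 over all tested genes. A value that missed the threshold does not show that the responses were equal.

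The other pair of comparisons asked how the genes differed between ΔIEC and fl/fl organoids, without and with IL-22. Each group in them also serves in an IL-22 comparison, so the comparisons share cultures. In untreated organoids Chga, Gip and Reg4 were lower in ΔIEC, by 1.75-fold, 2.26-fold and 1.83-fold. With IL-22 Chga, Chgb, Gcg, Gip and Reg4 were lower, by 1.98-fold, 1.74-fold, 2.33-fold, 2.21-fold and 2.06-fold. Cck, Sct, Tac1, Tph1 and Neurod1 did not pass in either comparison.

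Untreated, 3 of 10 genes were lower and none higher in edgeR, where 5.98% of tested genes were lower and 3.78% higher. With IL-22, 5 of 10 were lower and none higher, where 9.84% of tested genes were lower and 9.91% higher. At an unadjusted p under 0.05, 7 of 10 passed in each of these comparisons in edgeR, all of them lower in ΔIEC, beside 4293 untreated and 5525 with IL-22 of the 12559 tested genes. The count was 7 in each comparison in DESeq2, and in limma-voom it was 6 untreated and 7 with IL-22. The median log2 fold change of the 10 genes was -0.81 untreated, beside -0.02 over all tested genes, and -0.83 with IL-22, beside 0.01. Log2 fold changes were negative for all but 3 genes untreated and all but 2 with IL-22. Summing the cultures of each line leaves 2 values a group and is the only alternative that takes lines, not cultures, as replicates. In it none of these calls passed the threshold, nor did that on Atg16l1 in untreated organoids (adjusted p = 0.0125).

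For Chga, untreated ΔIEC cultures (17.9 to 41.8 CPM) were all below untreated fl/fl cultures (46.2 to 61.8 CPM), with a log2 difference of -0.81 (SE 0.21, adjusted p = 0.00964). With IL-22 the ΔIEC cultures (18.6 to 38.1 CPM) were again all below those of fl/fl (51.8 to 61.1 CPM), at -0.98 (SE 0.21, adjusted p = 0.00128). The first ΔIEC line had the lowest values in both. The untreated call was at the edge of the threshold and was lost with RLE scaling, with only the compared groups in the fit, without the first line of either genotype, and without any 1 of 10 cultures. Those were untreated fl/fl replicates 1, 2 and 4, all IL-22-treated fl/fl cultures, untreated ΔIEC replicates 1 and 2, and IL-22-treated ΔIEC replicate 4, with adjusted p of 0.0102 to 0.152 for Chga over these cultures and lines. Over all left-out cultures and lines the difference of Chga lay between -1.43 and -0.68 with IL-22, and untreated between -1.15 without the second ΔIEC line and -0.44 without the first (adjusted p = 0.0705). Without the second fl/fl line the log2 fold change of Chga was -0.98 untreated (adjusted p = 0.00645) and -0.98 with IL-22 (adjusted p = 0.00739). The call with IL-22 held in every other alternative than the summed cultures.

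Chgb, the other granin, overlapped between genotypes when untreated, with ΔIEC at 151 to 249 CPM and fl/fl at 245 to 443 CPM, and did not pass (-0.70, SE 0.22, adjusted p = 0.0308). With IL-22 all ΔIEC cultures (161 to 324 CPM) were below all fl/fl cultures (352 to 499 CPM), at -0.80 (SE 0.22, adjusted p = 0.00923). That call was lost with DESeq2, without the first line of either genotype, and without any 1 of 9 cultures. Those were all IL-22-treated fl/fl cultures, untreated ΔIEC replicates 2, 3 and 4, and IL-22-treated ΔIEC replicates 1 and 2, with adjusted p of 0.0105 to 0.161 for Chgb over these cultures and lines. The Chgb value with IL-22 was -0.44 (adjusted p = 0.161) without the first ΔIEC line and -1.33 (adjusted p = 4.05e-04) without the second. Without the second fl/fl line the log2 fold change of Chgb was -1.02 untreated (adjusted p = 0.00305) and -0.98 with IL-22 (adjusted p = 0.00352), and both passed. Untreated, it also passed without the second ΔIEC line (-0.95, adjusted p = 0.00871) and with no filter on low counts (-0.69, adjusted p = 1.19e-10), and over all alternatives its adjusted p reached 0.45. With no filter the untreated log2 fold change of Chgb hardly moved, so the lower adjusted p is not a larger difference.

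Cck, with a mean of 51.5 CPM in untreated fl/fl and 28.0 CPM in untreated ΔIEC, did not pass (-0.95, SE 0.36, adjusted p = 0.0638), nor with IL-22 (-0.87, SE 0.33, adjusted p = 0.0521). The untreated difference of Cck depended on the line compared. It was -1.44 (adjusted p = 0.0036) without the second fl/fl line and -0.14 (adjusted p = 0.86) without the first. With IL-22 it was -1.08 (adjusted p = 0.0164) without the second fl/fl line, and the difference of Cck passed without the second ΔIEC line (-1.80, adjusted p = 0.00227). With no filter on low counts Cck passed in both comparisons (-0.93, adjusted p = 1.02e-10, and -0.85, adjusted p = 2.68e-10). Its log2 fold changes hardly moved there, and its cultures overlapped between genotypes in both comparisons, so the lower adjusted p is not a larger difference. Over all alternatives its adjusted p reached 0.86 untreated and 0.486 with IL-22. Sct did not pass either, with means in fl/fl and ΔIEC of 20.3 and 22.4 CPM untreated and 21.8 and 23.9 CPM with IL-22, with log2 fold changes of 0.12 (SE 0.23, adjusted p = 0.761) and 0.18 (SE 0.22, adjusted p = 0.561). Sct was at -0.08 untreated (adjusted p = 0.847) and 0.08 with IL-22 (adjusted p = 0.855) without the second fl/fl line.

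Gip was lower in each ΔIEC culture than in any fl/fl culture of the same treatment. Untreated, ΔIEC ranged from 2.71 to 8.31 CPM and fl/fl from 9.07 to 11.5 CPM, a log2 difference of -1.18 (SE 0.28, adjusted p = 0.00583). With IL-22, ΔIEC ranged from 3.24 to 6.95 CPM and fl/fl from 9.12 to 12.3 CPM, at -1.14 (SE 0.27, adjusted p = 0.00312). Gip had only 8 to 60 counts per culture. The untreated call was lost with only the compared groups in the fit, without either fl/fl line, without the first ΔIEC line, and without replicate 1 or 2 of either untreated group, with adjusted p of 0.0102 to 0.189. With IL-22 the Gip call was lost without the second fl/fl line, without the first ΔIEC line, and without IL-22-treated ΔIEC replicate 1, 2 or 4, with adjusted p of 0.011 to 0.0404. The size of the Gip difference depended on the ΔIEC line too. Untreated, it was -0.57 (adjusted p = 0.189) without the first ΔIEC line and -1.80 (adjusted p = 5.95e-04) without the second, and over all left-out cultures and lines with IL-22 it lay between -1.47 and -0.92. Gip was at -1.30 untreated (adjusted p = 0.0102) and -1.01 with IL-22 (adjusted p = 0.0404) without the second fl/fl line.

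For Gcg, all untreated ΔIEC cultures (0.236 to 2.91 CPM) were below all untreated fl/fl cultures (4.34 to 7.25 CPM), at -1.58 (SE 0.46, adjusted p = 0.0188), which did not pass. DESeq2 (adjusted p = 0.00561) and the fit with no filter on low counts (adjusted p = 2.72e-04) took it past the threshold, and its adjusted p over all alternatives reached 0.22. With IL-22 the ranges overlapped, at 3.47 to 8.46 CPM in ΔIEC and 7.95 to 18.6 CPM in fl/fl, and the log2 fold change of -1.22 (SE 0.33, adjusted p = 0.00853) passed. That call was lost with limma-voom, without the second fl/fl line or either ΔIEC line, and without any 1 of 9 cultures. Those were untreated fl/fl replicate 1, IL-22-treated fl/fl replicates 1, 3 and 4, untreated ΔIEC replicates 2 and 3, and IL-22-treated ΔIEC replicates 1, 2 and 4, with adjusted p of 0.0101 to 0.142 for Gcg over these cultures and lines, and the value lay between -1.52 and -0.83 over all of those left out. Without the second fl/fl line Gcg was at -1.42 untreated (adjusted p = 0.0619) and -0.83 with IL-22 (adjusted p = 0.142), and neither passed.

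Tph1 and Tac1 did not pass between the genotypes. The log2 fold change of Tph1 was 0.07 (SE 0.37, adjusted p = 0.919) untreated and -0.22 (SE 0.33, adjusted p = 0.64) with IL-22. Within ΔIEC, the second line had more Tph1 (32.6 and 18.7 CPM untreated, 37.8 and 24.3 CPM with IL-22) than the first (9.90 and 13.8, 13.8 and 15.1 CPM). Tac1 was at 0.49 (SE 0.27, adjusted p = 0.208) untreated and 0.06 (SE 0.19, adjusted p = 0.845) with IL-22. Without the second fl/fl line neither gene passed. Tph1 was then at -0.05 untreated (adjusted p = 0.947) and -0.70 with IL-22 (adjusted p = 0.141), and Tac1 at 0.42 (adjusted p = 0.399) and -0.04 (adjusted p = 0.91).

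Neurod1 was at 4.48 to 5.17 CPM in untreated ΔIEC cultures, all below the 7.76 to 9.44 CPM of untreated fl/fl cultures. The log2 fold change of -0.81 (SE 0.32, adjusted p = 0.0787) did not pass. With IL-22 Neurod1 overlapped, at -0.63 (SE 0.28, adjusted p = 0.0916). It passed there without IL-22-treated ΔIEC replicate 3, which had 14.2 CPM (-1.11, adjusted p = 0.00219), or without the second ΔIEC line (-1.46, adjusted p = 0.00219). Over all alternatives its adjusted p reached 0.678. Neurod1 was at -0.90 untreated (adjusted p = 0.109) and -0.67 with IL-22 (adjusted p = 0.184) without the second fl/fl line.

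Reg4 was lower in every ΔIEC culture than in any fl/fl culture of the same treatment. Untreated, it was at 127.5 to 149 CPM against 202 to 307 CPM, a log2 difference of -0.87 (SE 0.11, adjusted p = 5.19e-05). With IL-22 it was at 16.02 to 21.3 CPM against 35.3 to 39.6 CPM, at -1.04 (SE 0.15, adjusted p = 5.00e-05). Without the second fl/fl line, which had less Reg4 than the first when untreated, the untreated value was -1.10 (adjusted p = 5.79e-07), and without the first it was -0.59 (adjusted p = 8.84e-04). With IL-22 it was -1.10 (adjusted p = 1.99e-05) without the second fl/fl line. The Reg4 calls between genotypes were lost with the summed cultures (adjusted p = 0.0407 untreated and 0.0174 with IL-22), which take lines as replicates. They were lost in no other alternative.

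Genes outside the 10, from lists of related function, were read in the same fit. Counts of list genes past the threshold stand beside these shares of all tested genes. With IL-22, 10.6% were higher and 10.2% lower in fl/fl, and 9.83% and 7.65% in ΔIEC. In ΔIEC against fl/fl, 3.78% were higher and 5.98% lower untreated, and 9.91% and 9.84% with IL-22. With the cultures of a line summed, the genotype calls on list genes were lost too, and of their IL-22 calls only those on Ddc and Mnx1 in ΔIEC and on Adra2a in fl/fl passed. Other hormones were mostly below the filter. Of 10 further hormone genes (Sst, Pyy, Ghrl, Nts, Insl5, Cartpt, Iapp, Ucn3, Gast and Ppy), 8 had any count and 2 were tested, Nts and Ghrl. Gast and Ppy had 0 counts in every culture. Somatostatin (Sst) had at most 6 counts per culture and peptide YY (Pyy), which L cells make beside GLP-1, at most 12, and neither was tested. Nts, which encodes neurotensin, had a mean of 29.2 CPM in untreated fl/fl and 41.7 CPM with IL-22, a log2 difference of 0.53 (SE 0.21, adjusted p = 0.0587) that passed with line as a replicate block (adjusted p = 0.00101) but not with the cultures of a line summed (adjusted p = 0.27). In ΔIEC the mean of Nts was 12.8 CPM untreated and 12.2 CPM with IL-22.

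Between genotypes Nts was lower in ΔIEC, at -1.22 (SE 0.25, adjusted p = 0.00195) untreated and -1.76 (SE 0.23, adjusted p = 2.33e-05) with IL-22. The untreated call on Nts was lost without untreated ΔIEC replicate 1 (-1.07, adjusted p = 0.0119) or without the first fl/fl line (-1.23, adjusted p = 0.0165). The call with IL-22 held over the left-out cultures and lines, but its size depended on the ΔIEC line, at -1.27 (adjusted p = 2.77e-04) without the first and -2.63 (adjusted p = 5.32e-07) without the second. Ghrl, which encodes ghrelin, had 10.6 and 12.5 CPM in fl/fl and 5.80 and 3.43 CPM in ΔIEC, untreated and with IL-22. Its genotype difference did not pass, at -0.96 (SE 0.47, adjusted p = 0.157) untreated and -1.73 (SE 0.50, adjusted p = 0.012) with IL-22. The median of the 2 genes was 0.33 with IL-22 in fl/fl and -0.32 in ΔIEC, and -1.09 and -1.74 between genotypes without and with IL-22.

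The list of granule and processing genes had 23 members, of which 13 were tested. With IL-22, 2 of 13 were higher and 1 of 13 lower in each genotype, and the median was 0.06 in fl/fl and 0.56 in ΔIEC, beside -0.05 and -0.01 over all tested genes. Pam, which amidates peptide hormones such as secretin and cholecystokinin, rose from 18.2 to 39.9 CPM in fl/fl (1.13, SE 0.17, adjusted p = 4.12e-05) and from 14.1 to 29.2 CPM in ΔIEC (1.06, SE 0.18, adjusted p = 1.74e-04). The ΔIEC call on Pam was lost without the second ΔIEC line (0.77, adjusted p = 0.0487). Gch1, the first enzyme in the synthesis of the cofactor that Tph1 needs, rose by 0.77 (SE 0.21, adjusted p = 0.00715) in fl/fl and by 0.86 (SE 0.22, adjusted p = 0.00495) in ΔIEC. Ddc, the decarboxylase that completes serotonin synthesis, had a mean of 27.9 CPM in untreated fl/fl and 10.8 CPM with IL-22 (-1.33, SE 0.20, adjusted p = 5.30e-05). In ΔIEC, Ddc went from 47.4 to 18.3 CPM (-1.43, SE 0.19, adjusted p = 8.46e-06).

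The Gch1 calls were fragile. In fl/fl the call was lost with only the compared groups in the fit, without untreated replicates 2, 3 or 4, without IL-22-treated replicates 1 or 2, and without the second line, with adjusted p of 0.0119 to 0.0517 for Gch1 over these cultures and lines. In ΔIEC it was lost without untreated replicates 1 or 2, without IL-22-treated replicates 3 or 4, and without either line, with adjusted p of 0.0186 to 0.0791. With line as a replicate block, the prohormone convertase Pcsk1 also passed in fl/fl (0.50, adjusted p = 0.00458), as did the carboxypeptidase Cpe in ΔIEC (0.69, adjusted p = 0.0021). Pcsk1 and Cpe did not pass without the block, at 0.48 (SE 0.20, adjusted p = 0.0797) and 0.75 (SE 0.31, adjusted p = 0.0792), and were chosen after their values were seen. With the cultures of a line summed neither passed (adjusted p = 0.266 for Pcsk1 and 0.332 for Cpe).

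Between genotypes, 2 of the 13 granule genes were lower and 1 higher in untreated ΔIEC, with a median of -0.61 beside -0.02 over all tested genes. Scg2, a granin, was at 14.8 CPM in fl/fl and 5.85 CPM in ΔIEC (-1.37, SE 0.25, adjusted p = 9.73e-04). Slc18a1, the vesicular transporter that loads serotonin into endocrine granules, was at 18.4 and 8.57 CPM (-1.12, SE 0.20, adjusted p = 6.61e-04). Ddc was higher in ΔIEC (0.80, SE 0.18, adjusted p = 0.00346), the opposite direction to Slc18a1. Ddc is also made by enterocytes, so its level is not one of enteroendocrine cells alone. Without the first ΔIEC line the calls on Scg2 (-1.12, adjusted p = 0.0447), Slc18a1 (-0.96, adjusted p = 0.0185) and Ddc (0.49, adjusted p = 0.0413) were lost. Without the first fl/fl line those on Scg2 (-1.03, adjusted p = 0.0289) and Ddc (0.80, adjusted p = 0.0377) were lost. The Ddc call was also lost without the second fl/fl line, untreated fl/fl replicate 2 or 4, or untreated ΔIEC replicate 1 or 2, with adjusted p of at least 0.0115. With IL-22, 3 of 13 were lower, with a median of -0.43 beside 0.01 over all tested genes. They were Pcsk1 (-1.15, SE 0.22, adjusted p = 5.38e-04), Scg2 (-1.39, SE 0.25, adjusted p = 3.10e-04) and Slc18a1 (-0.88, SE 0.19, adjusted p = 0.00182), chosen after their values were seen. Without the first ΔIEC line the calls with IL-22 on Pcsk1 (-0.94, adjusted p = 0.0102), Scg2 (-1.20, adjusted p = 0.0141) and Slc18a1 (-0.69, adjusted p = 0.037) were lost, and that on Slc18a1 also without the second fl/fl line (-0.87, adjusted p = 0.0135).

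Of 19 transcription factors of the lineage, 8 were tested. In fl/fl organoids 1 was higher and 2 were lower with IL-22, and in ΔIEC 1 was lower, with medians of -0.03 and -0.09. Mnx1, a homeodomain factor, fell in both genotypes, by 1.32 (SE 0.26, adjusted p = 5.94e-04) in fl/fl and by 1.59 (SE 0.25, adjusted p = 8.39e-05) in ΔIEC on the log2 scale. Mnx1 had means of 7.55 and 2.93 CPM in fl/fl and 9.68 and 3.24 CPM in ΔIEC. The Mnx1 call in fl/fl was lost without the first (-1.45, adjusted p = 0.0109) or the second fl/fl line (-1.13, adjusted p = 0.0256), and that in ΔIEC without the second ΔIEC line (-1.46, adjusted p = 0.0132). The forkhead factors Foxa1 and Foxa2, which act in secretory lineages, went opposite ways in fl/fl. Foxa1 was higher (0.69, SE 0.15, adjusted p = 0.00129) and Foxa2 lower (-1.05, SE 0.28, adjusted p = 0.00671) with IL-22. The Foxa1 call was lost without the first fl/fl line (0.44, adjusted p = 0.129). That on Foxa2 was lost without the first or the second fl/fl line (-0.68 without the second), the second ΔIEC line, untreated fl/fl replicates 1, 2 or 3, or IL-22-treated fl/fl replicates 1, 3 or 4, with adjusted p of 0.0102 to 0.216. It was also lost with only the compared groups in the fit. In ΔIEC, Foxa1 was at 0.15 and Foxa2 at -0.06, and the interaction did not pass for Foxa1 (-0.53, SE 0.21, adjusted p = 0.559) or Foxa2 (1.00, SE 0.38, adjusted p = 0.552).

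Between genotypes 1 of the 8 tested factors passed in each comparison, Atoh1, which commits crypt cells to the secretory lineages. Atoh1 was lower in ΔIEC, with means of 21.9 and 12.9 CPM untreated (-0.76, SE 0.16, adjusted p = 0.00267) and 18.8 and 11.7 CPM with IL-22 (-0.69, SE 0.16, adjusted p = 0.00299). The medians of the 8 factors were 0.33 untreated and 0.34 with IL-22, with positive values for 6 and 5 of them. Insm1, chosen after its values were seen, was at 0.94 (SE 0.37, adjusted p = 0.0796) untreated and 0.58 (SE 0.35, adjusted p = 0.211) with IL-22, and did not pass. The untreated call on Atoh1 was lost with limma-voom, without the first fl/fl line or either ΔIEC line, or without untreated ΔIEC replicate 1, with adjusted p of 0.014 to 0.0618 for Atoh1 over these cultures and lines. With IL-22 it was lost with limma-voom, without the first line of either genotype, or without IL-22-treated replicate 2 of either genotype, with adjusted p of 0.0133 to 0.0695.

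Of 14 receptors and channels through which enteroendocrine cells sense nutrients and other signals, 12 had counts and 3 were tested. Adra2a, an adrenergic receptor found on enterochromaffin cells, rose with IL-22 from 8.67 to 24.8 CPM in fl/fl (1.55, SE 0.17, adjusted p = 1.03e-06) and from 14.2 to 24.3 CPM in ΔIEC (0.77, SE 0.16, adjusted p = 0.00103). The ΔIEC call on Adra2a was lost without the first (0.84, adjusted p = 0.0256) or the second ΔIEC line (0.70, adjusted p = 0.0362). The interaction of Adra2a was -0.78 (SE 0.23, adjusted p = 0.404) and did not pass. Ffar4, a receptor for long-chain fatty acids, rose in ΔIEC (0.84, SE 0.23, adjusted p = 0.00844). In fl/fl it was at 0.47 (SE 0.26, adjusted p = 0.182), and the interaction was 0.38 (SE 0.35, adjusted p = 0.88). The Ffar4 call was lost with DESeq2, with only the compared groups in the fit, without either ΔIEC line, or without any 1 of 8 cultures. Those were IL-22-treated fl/fl replicates 1 and 3, untreated ΔIEC replicates 1, 2 and 3, and IL-22-treated ΔIEC replicates 1, 3 and 4, with adjusted p of 0.0109 to 0.111 for Ffar4 over these cultures and lines. The counts were 1 of 3 higher in fl/fl and 2 of 3 in ΔIEC, with medians of 1.12 and 0.84.

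Between genotypes 1 of the 3 receptors was higher untreated and 1 with IL-22, with medians of 0.62 and 0.25. Untreated, Adra2a was higher in ΔIEC (0.74, SE 0.18, adjusted p = 0.00712). That call was lost with limma-voom, with only the compared groups in the fit, without any 1 line, and without replicates 1, 2 or 4 of either untreated group, with adjusted p of 0.0107 to 0.13 for Adra2a over these cultures and lines. With IL-22 Ffar4 was higher in ΔIEC (1.00, SE 0.22, adjusted p = 0.00227), chosen after its values were seen. It was lost without the first fl/fl line (0.86, adjusted p = 0.0208), the second ΔIEC line (0.76, adjusted p = 0.0468) or IL-22-treated ΔIEC replicate 4 (0.86, adjusted p = 0.0126).

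Markers of other epithelial cell types moved in the same comparisons, and their part in the results on the 10 genes was not tested. Their counts, too, stand beside the shares of all tested genes given for the lists above. With IL-22, 6 of 8 enterocyte markers fell in fl/fl and 4 of 8 in ΔIEC. Their sum was 3335, 3017, 3273 and 2923 CPM in untreated fl/fl cultures and 1098, 1281, 839 and 878 CPM with IL-22. In ΔIEC it was 3681, 3608, 3453 and 3060 CPM untreated and 1593, 1593, 995 and 981 CPM with IL-22, with Alpi the largest part. Stem cell markers also fell, 2 of 5 in fl/fl and 4 of 5 in ΔIEC. Their sum was 384, 417, 611 and 576 CPM in untreated fl/fl cultures and 244, 229.7, 267 and 253 CPM with IL-22. In ΔIEC it was 1065, 909, 988 and 1039 CPM untreated and 494, 355, 408 and 357 CPM with IL-22. No marker of either list had 0 counts throughout. Of 8 goblet markers, 3 were higher and 1 lower in fl/fl, and 2 were higher and 2 lower in ΔIEC. Of 7 Paneth markers, 1 was higher and 1 lower in each genotype. Of 6 epithelial markers, 3 were higher in fl/fl and 1 in ΔIEC. Of 3 tested tuft cell markers, Avil was higher in both genotypes, but not without the first fl/fl line (1.64, adjusted p = 0.0148) or the second ΔIEC line (1.45, adjusted p = 0.0195), respectively.

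The marker counts with IL-22 also depended on the fit. Over the left-out cultures and lines 4 to 7 enterocyte markers were lower in fl/fl and 2 to 7 in ΔIEC, and 2 to 3 and 2 to 5 stem cell markers. With the cultures of a line summed 2 and 1 enterocyte markers and 2 and 2 stem cell markers were lower, and with line as a replicate block 8 and 7 and 4 and 5. Goblet markers higher in the left-out fits numbered 1 to 3 in fl/fl and 2 in ΔIEC, and those lower 0 to 1 and 0 to 4. Paneth markers higher there numbered 1 to 2 in fl/fl and 1 in ΔIEC, with 0 to 1 lower in each, and epithelial markers higher 1 to 4 and 1 to 2. On the line sums 1 goblet marker in ΔIEC, 1 Paneth marker in each genotype and 1 epithelial marker in fl/fl were higher, and no other marker of these 3 lists passed.

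Between genotypes part of the goblet and Paneth cell markers were lower in ΔIEC too, while no tuft cell marker passed in any alternative run. Goblet cell markers were lower for 4 of 8 genes untreated and 5 of 8 with IL-22. Their sum was 3360, 3346, 2128 and 2209 CPM in untreated fl/fl cultures and 1517, 1578, 2021 and 1966 CPM in untreated ΔIEC cultures. With IL-22 it was 3048, 3064, 2267 and 2058 CPM in fl/fl and 1057, 1086, 1726 and 1471 CPM in ΔIEC, with Fcgbp the largest part. Paneth cell markers were lower for 4 of 7 genes untreated and 6 of 7 with IL-22. Their sum was 8086, 7453, 5927 and 5667 CPM in untreated fl/fl cultures and 3307, 3181, 4173 and 4010 CPM in untreated ΔIEC cultures. Defa24 was the largest part of it in fl/fl and Lyz1 in ΔIEC. With IL-22 the Paneth sum was 9491, 8707, 7791 and 7051 CPM in fl/fl and 4512, 3879, 4613 and 3966 CPM in ΔIEC. Stem cell markers were higher in ΔIEC for 3 of 5 genes untreated, and with IL-22 for 3 of 5, with 1 of 5 lower.

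Enterocyte markers were higher in ΔIEC for 1 of 8 untreated (Fabp2) and 3 of 8 with IL-22 (Fabp2, Apoa4 and Anpep). With IL-22 the high values of Apoa4 (266 and 243 CPM) and Anpep (93.2 and 71.9 CPM) were those of the first ΔIEC line. The second ΔIEC line, with 73.1 and 72.3 CPM of Apoa4 and 17.5 and 18.8 CPM of Anpep, lay near the fl/fl cultures, which reached 74.7 and 18.8 CPM.

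The marker counts between genotypes depended on how lines were treated. With the cultures of a line summed, no goblet or enterocyte marker passed, and of the other lists 2 Paneth markers were lower and 2 stem cell markers higher in ΔIEC with IL-22. Over the left-out cultures and lines 3 to 5 goblet markers were lower untreated and 0 to 5 with IL-22, and 2 to 7 Paneth markers untreated and 4 to 7 with IL-22. Higher in ΔIEC were 2 to 4 stem cell markers untreated and 2 to 3 with IL-22, and 0 to 2 and 0 to 5 enterocyte markers.

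Of the 5 tested enteroendocrine markers, 1 was lower in untreated ΔIEC (Chga) and 3 with IL-22 (Chga, Chgb and Pcsk1). Neurog3, also of this list and chosen after its values were seen, had positive values that did not pass. It was at 0.85 (SE 0.31, adjusted p = 0.058) untreated and 0.57 (SE 0.35, adjusted p = 0.218) with IL-22. The sum of the enteroendocrine markers was 501, 539, 323 and 343 CPM in untreated fl/fl cultures and 190.5, 252, 313 and 309 CPM in untreated ΔIEC cultures. With IL-22 it was 602, 536, 441 and 458 CPM in fl/fl and 205, 209.6, 397 and 343 CPM in ΔIEC. In both treatments the higher sums were those of the first line in fl/fl and of the second line in ΔIEC.

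The 10 genes were also compared by how they varied among cultures of the same group, as the Pearson correlation of deviations from the group mean over 16 cultures. These are descriptions: cultures of a line are not independent, and much of the variation lies between lines. Chgb and Cck were the most alike (0.94), followed by Chga and Chgb (0.86) and Sct and Cck (0.84). Tph1 was near Chgb (0.81), and Gip near Chga (0.75). Gcg was at 0.54 with Chga and 0.06 with Cck. Tac1 lay between -0.04 and 0.39 with the others, and Reg4 between -0.35 and 0.23. The granins, Cck, Sct and Tph1 thus varied together, and Tac1 and Reg4 varied apart from them.

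Over all 12559 tested genes, those most like each of the 10 on this measure were as follows. Chga was closest to Mboat1 (0.94), Myo18a (0.93) and Cldn4 (0.93), and Chgb to Gprc5a (0.97), Qsox1 (0.96) and Areg (0.96). Cck was closest to Nectin2 (0.99), Atp11a (0.98) and Pglyrp1 (0.97). None of these is a hormone or granule gene of the lists. Sct was closest to Cadm4 (0.90), Tstd1 (0.89) and 9930014A18Rik (0.87), and Gip to Birc3 (0.91), Insc (0.86) and Rasal1 (0.85). Gcg was closest to Optn (0.83), Car8 (0.80) and Gper1 (0.80), and Tph1 to Sh3bgrl3 (0.92), Zfp462 (0.92) and Cd177 (0.91). Neurod1 was closest to Acap2 (0.95), Podxl (0.94) and Ero1l (0.93). Tac1 was closest to 1700040L08Rik (0.91), Abhd13 (0.85) and Erich1 (0.81), and Reg4 to Parl, Nudt16l1 and Naip1 (0.88 each).

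The 250 bases before each RefSeq transcript start were read (GRCm38.p6), which gave 11 windows for all 10 genes, since Tph1 has a pair. These starts can differ from the gene positions given above. By those positions the window of Chgb and one of Tph1 lay inside the gene, and those of Tac1 and Neurod1 ran into it. A pair of motifs was searched on both strands, TTCNNNGAA, a form bound by STAT factors, and CANNTG, the E-box bound by factors such as Neurod1. TTCNNNGAA was in 0 of the 11 windows and in 7.0% of 32851 windows of all genes. CANNTG was in 66.2% of all windows and in those of 9 of the 10 genes, with 3 matches each for Chga, Gcg, Cck and Sct, 2 each for Gip and Tac1, 1 each for Chgb, Neurod1 and Reg4, and 0 for Tph1. A match is a description of the letters only, and a missing match says only that the letters are not in the window. The windows of Gcg (chr2:62483654-62483903, minus strand) and Reg4 (chr3:98221906-98222155, plus strand) are shown as those of a gene that rose and the gene that fell among the 10 with IL-22 in fl/fl. Each is written in the direction of transcription, with CANNTG matches in capitals.
Gcg: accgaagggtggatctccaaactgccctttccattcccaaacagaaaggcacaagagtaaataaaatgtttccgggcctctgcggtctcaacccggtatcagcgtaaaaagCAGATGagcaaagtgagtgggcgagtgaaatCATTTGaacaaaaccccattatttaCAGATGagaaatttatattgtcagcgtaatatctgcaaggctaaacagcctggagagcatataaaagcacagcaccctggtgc
Reg4: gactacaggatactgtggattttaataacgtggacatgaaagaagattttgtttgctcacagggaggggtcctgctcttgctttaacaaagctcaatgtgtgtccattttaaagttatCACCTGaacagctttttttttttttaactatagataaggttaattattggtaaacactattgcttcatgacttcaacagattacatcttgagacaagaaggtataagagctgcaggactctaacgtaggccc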

How the data were processed

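Per the labels, the authors trimmed reads with cutadapt, aligned them to GRCm38 (mm10) with TopHat2 and counted them per gene with HTSeq, and the authors deposited these counts, whole numbers without normalization. The strand setting and annotation release were not given in the sources used here, and the library kit is named differently in the labels and in the methods. Lines that sum reads outside single genes held 61.7% to 63.7% of each library (median 62.7%) and were left out. Identifiers were matched without version to GENCODE M21 (49326 of 49585 genes, 99.5%).

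The 10 genes and all lists were chosen with earlier results of these data known. A neuronal marker of the planned list is not reported here. Fits ran in edgeR 4.0.16 under R 4.3.3. The filter was filterByExpr on the 4 groups, scaling was by TMM, and two-sided quasi-likelihood tests were run on 1 fit with a mean per group. The SE is the size of the log2 fold change over the root of F. The fit was tested on simulated data, with independent cultures and changes planted only in IL-22-treated fl/fl. The simulated data held no line effect, so this check does not bear on lines or on genotype differences. Log2 CPM for permutation tests, correlations and the IL-22 changes within lines used a prior count of 2. Those changes are differences of mean log2 CPM and can differ from the values of the fit. Named genes were the 10, Atg16l1, up to 4 genes with the smallest p per list and direction past the threshold in each IL-22 comparison and between untreated genotypes (where none passed, the 2 most abundant), and the 3 genes most like each of the 10. Other genes named with values were chosen after their values were seen. Line pairing was checked by correlating deviations from the group mean of all tested genes between untreated and treated cultures, which gave 0.26 to 0.44 within and -0.43 to -0.22 between fl/fl lines, and 0.06 to 0.32 and -0.35 to -0.08 in ΔIEC. Each group mean is taken over both lines, so the negative values between lines mirror those within lines and are no second check. Cultures of a group were also compared by chi-squared per degree of freedom, which is lower for more alike cultures. IL-22-treated ΔIEC replicate 2 was nearer to replicate 4 of the other line (4.42) than to replicate 1 of its own (7.34). For untreated ΔIEC replicate 2 the value was 2.17 and 2.27 with replicates 3 and 4, and 2.20 with replicate 1. This measure also grows with depth. Untreated ΔIEC replicates 3 and 4 had fewer counts on genes (2347992 and 2268697) than replicate 1 (3976507), so these values do not rank nearness.

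Alternatives were RLE scaling, no filter, DESeq2 1.42.0, line as a replicate block, limma 3.58.1 (voom) with a correlation of 0.261 within lines, cultures of a line summed, only the compared groups in the fit, a threshold of 0.05, a prior count of 0.5, and leaving out each of 16 cultures and 4 lines. The fit with no filter keeps every gene with a count, and these genes enter the estimate of spread. Its adjusted p can therefore fall with little change in the log2 fold change.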

Additional observations from a re-analysis of the deposited data

Results flagged for a closer look

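In untreated ΔIEC organoids Gcg was at 0.236 CPM in replicate 1, from 1 count, far below the 2.46 to 2.91 CPM of the other 3 cultures. The gap was 0.833 of the group's range, above the critical value of Dixon's test for 4 samples. Such a value comes up by chance in about 1 in 20 groups, and 40 pairs of gene and group were looked at.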

How the results depend on the processing

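The calls on Reg4 and Tac1 with IL-22 held in both genotypes under every alternative run, while those on Gcg, Chgb and Gip, and that on Chga between untreated genotypes, were lost in several. The call on Chga between genotypes with IL-22 was lost only with summed cultures. Of the log2 fold changes recomputed, 1831 kept direction and side of the threshold, 181 lost the threshold, 21 gained it and 79 changed sign, and none of those that changed sign was past the threshold. Depth limits Gcg (1 to 75 counts per culture), Gip, Neurod1 and Tac1, and with 2 lines per genotype a difference between genotypes rests on few sources. The comparison without the second fl/fl line was chosen after seeing the data. Where a left-out line leaves 1 line in an arm, its cultures are assumed to vary like the others. In every case named here the cause was not tested.

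With line as a replicate block, 4 of the 10 genes were higher with IL-22 in fl/fl (2 without the block) and 2 in ΔIEC (1 without), 3837 and 3198 of all genes passed in these comparisons, and 56 passed for the interaction (2 without). With cultures of a line summed the genes higher in fl/fl numbered 1, and those lower in ΔIEC 0 untreated and 0 with IL-22 (3 and 5 in the fit reported), while all genes past the threshold numbered 543, 635, 0, 10 and 188 for IL-22 in fl/fl, in ΔIEC, the interaction, and genotype untreated and with IL-22 (2608, 2195, 2, 1226 and 2481 reported). With no filter, 2 of the 10 were higher in ΔIEC with IL-22 and 6 lower in untreated ΔIEC, 80 of all genes passed for the interaction and 1840 between untreated genotypes. With DESeq2, 2 of the 10 were higher in ΔIEC with IL-22, where 2243 of all genes passed in either direction. For the interaction 15 of all genes passed with DESeq2, with RLE 1 did, and with limma-voom 5 did and 777 passed between untreated genotypes. With only the compared groups in the fit 1 of the 10 was lower in untreated ΔIEC. At a threshold of 0.05, 2 of the 10 were higher in ΔIEC with IL-22, 5 were lower in untreated ΔIEC, and all genes past it numbered 4057, 3500, 2559 and 4168 for IL-22 in fl/fl, in ΔIEC, and genotype untreated and with IL-22.

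Leaving out 1 culture or line gave 1 to 2 of the 10 higher with IL-22 in each genotype, 1 to 4 lower in untreated ΔIEC and 2 to 6 with IL-22. All genes past the threshold numbered 1083 to 2796 (IL-22 in fl/fl), 913 to 2491 (IL-22 in ΔIEC), 0 to 4 (interaction), 445 to 1639 (genotype untreated) and 950 to 2672 (genotype with IL-22).

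Signs changed only for values that had not passed. The interaction of Cck (0.09) was -0.03 with DESeq2, -0.12 with the block and -0.16 with limma-voom, that of Gip (0.04) was -0.01 with DESeq2 and -0.04 with the block, that of Sct (0.06) was -0.01 with the block, and that of Neurod1 (0.19) was -0.10 with limma-voom. Tph1 between untreated genotypes (0.07) was -0.07 with limma-voom. Over left-out cultures and lines, the interaction ranged from -0.41 to 0.00 for Chga, -0.39 to 0.05 for Chgb, -0.14 to 0.77 for Gcg, -0.51 to 0.36 for Cck, -0.30 to 0.23 for Sct, -0.34 to 0.37 for Gip, -0.65 to 0.20 for Tph1, -0.66 to 0.64 for Neurod1 and -0.43 to 0.01 for Reg4. The IL-22 change ranged in fl/fl from -0.14 to 0.27 for Chga, -0.05 to 0.24 for Sct and -0.16 to 0.34 for Gip, and in ΔIEC from -0.37 to 0.00 for Chga, -0.10 to 0.32 for Chgb, -0.16 to 0.64 for Cck, -0.21 to 0.30 for Sct, -0.27 to 0.45 for Gip and -0.15 to 1.14 for Neurod1. The genotype difference ranged from -0.08 to 0.37 for Sct and -0.50 to 0.59 for Tph1 untreated, and with IL-22 from -0.32 to 0.52 for Sct, -0.07 to 0.16 for Tac1 and -0.92 to 0.38 for Tph1.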
